A study of Mus musculus with 50 samples.

Results

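The mitochondrial genome of the mouse encodes 37 genes: 13 messenger RNAs, 2 ribosomal RNAs and 22 transfer RNAs. They were chosen by symbol alone, as every gene of the deposited tables whose symbol begins with mt-, and they make up 37 of the 55385 genes listed. The RNA-seq series followed spinal motor neurons from their birth to old age and in culture in 28 libraries. At E10.5 (3 libraries) the strain was C57BL/6- HB9-GFP, in which the Hb9 promoter drives GFP in newly born motor neurons, and RNA came from whole GFP-positive cells collected by flow cytometry. At E13.5 (2), P4 (3), P13 (2), P21 (3), P56 (3) and 2yr (2) the strain was C57BL/6- Chat-Cre;SUN1-GFP-3xMYC, and RNA came from nuclei pulled down by the tagged nuclear envelope protein SUN1 (INTACT). Embryos or animals were pooled in each library. Chat-Cre marks cholinergic neurons other than motor neurons too, and the study's methods name blood vessel nuclei as a contaminant of the E13.5 and P4 preparations. The culture libraries were also nuclei, from a single stem cell line carrying the same alleles and untreated unless stated: DIV0 (2 libraries of embryoid bodies before plating), DIV7 (2) and DIV28 (3) on cortical astrocytes, and DIV28 with 1 µM tetrodotoxin (TTX, a blocker of sodium channels and so of neuronal firing) for all 28 days (3). The library titled DIV0 replicate 3 was placed in DIV28 against its title, as the study's replicate numbers (2 for DIV0 and 3 for DIV28) have it. Its counts correlated with the other DIV28 libraries at r = 0.935 and 0.937 and with the DIV0 libraries at r = 0.678 and 0.678 (log2 scale, 12890 genes), and most closely with TTX replicate 3, at r = 0.961. Results that rest on it are given with and without it.

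Mitochondrial DNA is transcribed inside the organelle, outside the nucleus, as long RNAs copied from almost the whole of each strand and then cut at the transfer RNAs. The messenger RNAs encode the core subunits of the respiratory chain: NADH dehydrogenase or complex I (mt-Nd1 to mt-Nd6 and mt-Nd4l), cytochrome b of complex III (mt-Cytb), cytochrome c oxidase or complex IV (mt-Co1, mt-Co2 and mt-Co3) and ATP synthase or complex V (mt-Atp6 and mt-Atp8). The remaining subunits of these complexes are encoded in the nucleus. mt-Rnr1 and mt-Rnr2 are the 12S and 16S RNAs of the mitochondrial ribosome, and among the messenger RNAs mt-Nd6 is the one read from the light strand. In neurons mitochondrial transcripts are spread through cell body, dendrites and axon, so a library of nuclei samples them only as far as they stay attached to or are carried along with the nuclei. With bulk libraries, fewer cells of a type and less RNA per cell cannot be told apart.

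The members lie on chrM (16299 bases, GRCm38/mm10), and their reads had to be told from near-identical DNA in the nuclear genome. A block on chromosome 1, chr1:24611535-24616197 on the minus strand, aligned to chrM:6390-11042 over 4653 bases, of which 4651 (99.96%) were identical, and 11 members lie whole inside the aligned stretch. It carries 7 annotated pseudogenes: of mt-Co1 (Gm29216), mt-Co2 (Gm28661), mt-Atp6 (Gm10925), mt-Co3 (Gm28437), mt-Nd3 (Gm28438), mt-Nd4l (Gm10222) and mt-Nd4 (Gm28439). The pseudogenes of mt-Co2, mt-Atp6, mt-Co3, mt-Nd4l and mt-Nd4 held 0 differences from the member over the aligned 681, 678, 783, 294 and 876 bases. The start of mt-Co2 is shown because it is the same in both places, so that a read from it has no base that places it.
mt-Co2, chrM:7013-7072, plus strand: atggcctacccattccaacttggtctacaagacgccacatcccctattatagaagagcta
Gm28661, chr1:24615506-24615565, minus strand: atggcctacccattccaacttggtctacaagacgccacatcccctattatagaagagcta
The annotated copy of mt-Nd3 differed at a single base, T3C (the member's base, the position counted from 1 at the gene's first base, then the base of the copy), in capitals here.
mt-Nd3, chrM:9459-9491, plus strand: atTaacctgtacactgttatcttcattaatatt
Gm28438, chr1:24613087-24613119, minus strand: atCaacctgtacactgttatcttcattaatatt
The copy of mt-Co1 covered 492 of the gene's 1545 bases and differed at its edge by T1056A, C1057T, A1059G, A1060G, C1062A and A1066T, again in capitals.
mt-Co1, chrM:6381-6413, plus strand: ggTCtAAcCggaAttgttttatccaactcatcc
Gm29216, chr1:24616165-24616197, minus strand: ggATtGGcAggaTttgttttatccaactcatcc
Of all windows of 198 bases in the member, 99.38% were found unaltered in the copy for mt-Co2, 99.38% for mt-Atp6, 99.83% for mt-Co3, 96.03% for mt-Nd3, 97% for mt-Nd4l, 57.49% for mt-Nd4 and 20.92% for mt-Co1. The other messenger RNAs (mt-Nd1, mt-Nd2, mt-Nd5, mt-Nd6, mt-Cytb and mt-Atp8) have no annotated copy in that block, although mt-Atp8 lies inside it. mt-Atp8 also shares its last 43 bases with the start of mt-Atp6 (chrM:7927-7969), a stretch that is read in both frames and cannot be assigned to either gene.
mt-Atp8 and mt-Atp6, chrM:7927-7969, plus strand: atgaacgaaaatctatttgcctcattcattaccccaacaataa

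RSEM, which divides reads that fit several transcripts by an estimated share, placed the counts of these pairs very differently from library to library. In the 25 nuclear libraries mt-Atp6 was listed at 0 in 21, mt-Nd4l in 21, mt-Nd3 in 19, mt-Co2 in 15 and mt-Co3 in 7, while in others the whole pair was listed under the member. Replicates of E13.5 show the scale of it. mt-Co2 had a counts-per-million (CPM) level of 77.7 in replicate 1 and 0.000786 in replicate 2, and with the counts of its copy added the same libraries held 82.6 and 49.8 CPM. mt-Co3 had 0.0192 and 22.6 CPM as deposited and 48.5 and 29.3 CPM with its copy. At E10.5 the split was more even: mt-Co2 received 40.7 to 56.5% of its pair, mt-Atp6 49.7 to 64.7%, and mt-Co3 49.5 to 75.0%. mt-Co1 and mt-Nd4, which have long stretches without a copy, kept 65.2 to 92.7% and 97.7 to 100% of their pairs in the nuclear libraries. For these 7 pairs the levels below are therefore of member and copy summed. Numbers of members called are on the deposited counts, with the result of the summed counts beside them where a call differs, and whether any of the RNA came from chromosome 1 cannot be told from these tables.

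**Figure D1:**
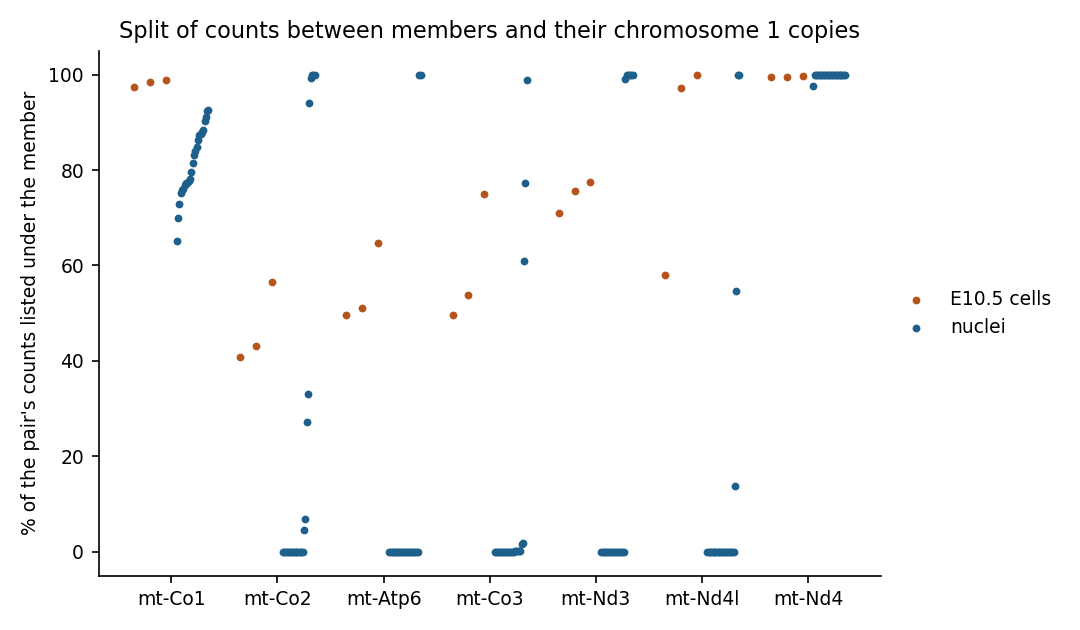
Percentage of the counts of each member and its chromosome 1 pseudogene that is listed under the member (y axis, 0 to 100%), for the 7 pairs (x axis). Each point is a library, 3 of E10.5 cells and 25 of nuclei. mt-Nd4 and mt-Co1 sit high in every library, whereas mt-Co2, mt-Atp6, mt-Co3, mt-Nd3 and mt-Nd4l fall mostly at 0 in nuclei with single libraries near 100%.

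The 22 transfer RNAs carry amino acids to the mitochondrial ribosome, and their genes are 59 to 75 bases long. They were not measured by these libraries in any useful sense: 601 of 616 values were 0, the highest was 4 counts, 16 transfer RNAs were at 0 in every library, and RSEM gave all of them an effective length of 0 because the sequenced fragments were longer than the genes. A count of 0 allowed a listed share of at most 1.37e-05 to 0.000111% of a library (3 counts of the total, counting error only). With an effective length of 0 it sets no limit on the transfer RNA itself. None passed the filter on low counts, so 13 messenger and 2 ribosomal RNAs remain.

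Library totals ran from 2704682 to 21823500 counts, the 13 messenger RNAs gave 251 to 41357 counts per library and the ribosomal RNAs 12 to 66682. All 28 libraries held the 6 motor neuron markers of a fixed list, at a summed 277 to 1773 CPM. Nuclear-retained RNAs such as Malat1 summed to 2215 to 5141 CPM in the E10.5 cells and to at least 30187 CPM in every library of nuclei. Markers of other cells differed between groups. The 7 endothelial genes summed to 0.982 to 3.52 CPM at E10.5, 2754 and 4579 at E13.5, 1193 to 1658 at P4, 65.7 and 100.6 at P13, and at most 14.3 at P21 and later ages. The 5 pericyte genes summed to 11.4 to 16.4, 426 and 502, 710 to 1068, and 58.7 and 77.2 CPM at the same ages, and the 8 erythroid genes to 0 to 1.26, 3323 and 3387, 239 to 329, and 45.9 and 54.7 CPM. The 6 oligodendrocyte genes summed to 46.0 and 50.02 CPM at E13.5, 438 to 562 at P4, 2106 and 2167 at P13, 1130 to 1528 at P21, 405 to 640 at P56, 294 and 334 at 2yr, and 4.34 to 16.9 in cultures from DIV7 on.

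The share of all counts taken by the 13 messenger RNAs and their copies was highest in the E10.5 cells and lowest in the DIV0 nuclei. In these shares the copies are a list of 10 nuclear copies, not only those of the 7 pairs. The E10.5 cell libraries held 0.586, 0.620 and 0.488% (mean 0.565 with an SD of 0.0685). The 2 libraries of E13.5 nuclei held 0.1401 and 0.109%, and the 3 of P4 0.133, 0.127 and 0.125%. The E10.5 libraries lay above every library of nuclei, and those of E13.5 and P4 overlapped. P13 nuclei held 0.0614 and 0.0594%, P21 nuclei 0.0221, 0.0452 and 0.0627%, P56 nuclei 0.0230, 0.0313 and 0.0638% and 2yr nuclei 0.0306 and 0.0250%. P13 lay inside the ranges of P21 and P56, and those 2 ages spread most between their own replicates. DIV0 nuclei gave the lowest shares, 0.00908 and 0.00904%, below all other libraries. DIV7 nuclei held 0.0404 and 0.0631%, DIV28 nuclei 0.0659, 0.0587 and 0.0439%, and DIV28 nuclei with TTX 0.0874, 0.0778 and 0.0762%.

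The ribosomal RNAs followed another order. They took 0.000224, 0.000151 and 0.00102% of counts in the E10.5 cells and 0.649 and 0.524% in the E13.5 nuclei, so the group with the most messenger RNA had almost no ribosomal RNA. P4 nuclei held 0.386 to 0.443%, P13 nuclei 0.145 and 0.163%, P21 nuclei 0.0665 to 0.226%, P56 nuclei 0.0660 to 0.162% and 2yr nuclei 0.0794 and 0.0881%. DIV0 nuclei, lowest in messenger RNA, held 0.196 and 0.193% of ribosomal RNA, inside the range of the other cultures without TTX (0.173 to 0.243%). Counts of ribosomal per messenger RNA (with copies) were accordingly 0.000243 to 0.00209 at E10.5, 4.63 and 4.81 at E13.5, 2.44 to 3.60 from P4 to 2yr, 21.6 and 21.3 at DIV0, and 3.13 to 5.20 in the other cultures, TTX included. Every library was made with the same total RNA kit, which removes ribosomal sequences before sequencing, and how completely it removed the mitochondrial ones in each library was not tested. Gm26917, a nuclear locus that carries ribosomal repeat sequence, was highest at E10.5, where mitochondrial ribosomal RNA was lowest. It took 15.5 to 16.2% of counts at E10.5, 0.493 and 1.03% at E13.5, and 7.89 and 8.34% at DIV0. Among the nuclei this order did not hold. P21 replicate 1 and P56 replicate 1, with 0.0665 and 0.0660% of mitochondrial ribosomal RNA, held 2.77 and 3.77% of Gm26917, less than DIV0.

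**Figure D2:**
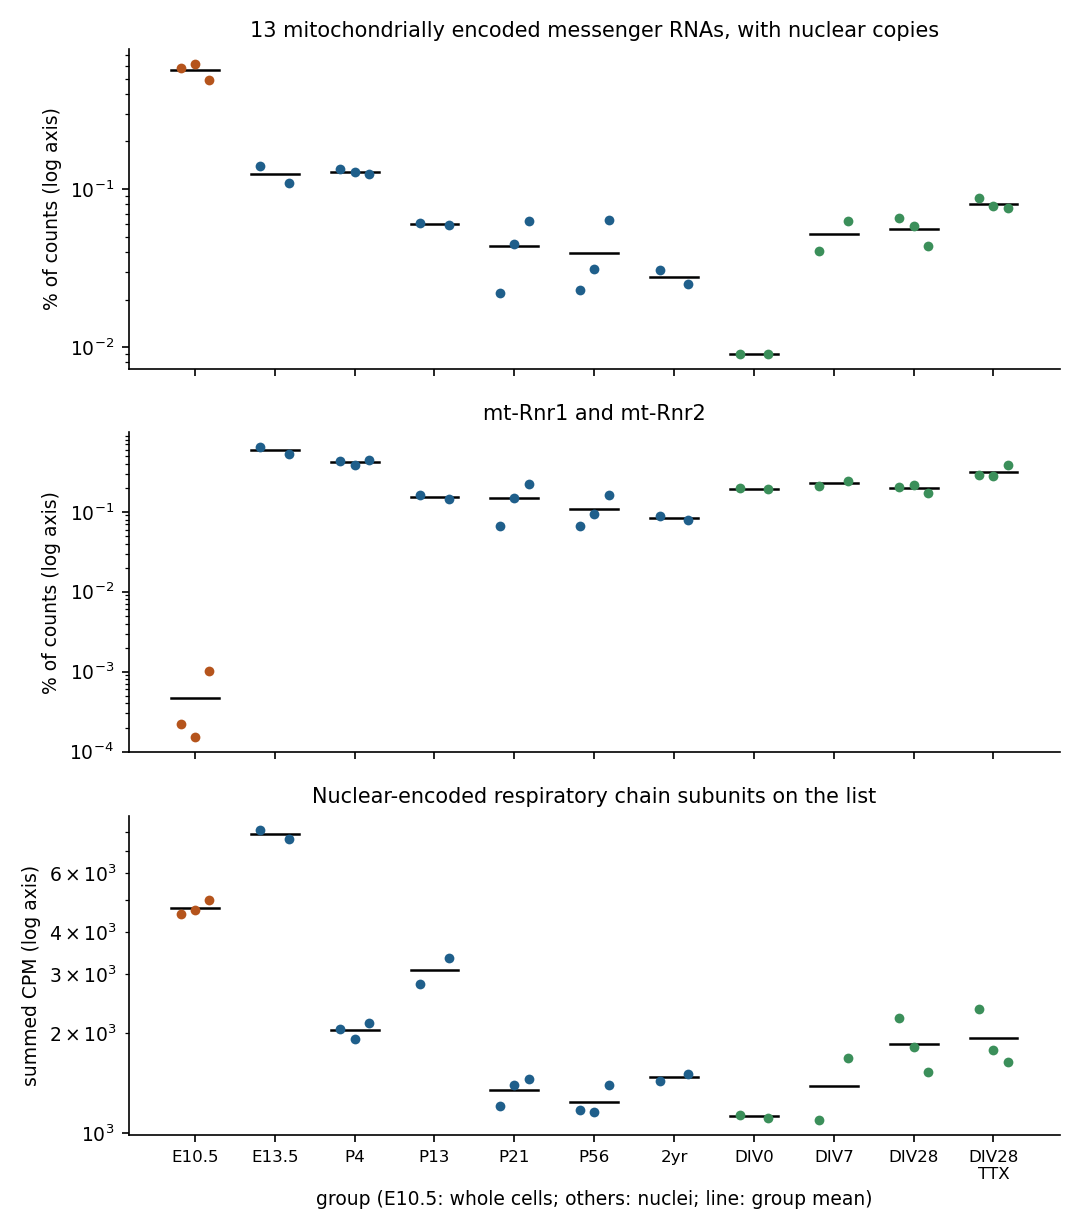
Percentage of all counts in the 13 messenger RNAs with their nuclear copies (top) and in mt-Rnr1 and mt-Rnr2 (middle), and summed CPM of the listed nuclear-encoded respiratory chain subunits (bottom), by group, all on log axes. Each point is a library and each line a group mean. Messenger RNA is highest in the E10.5 cells and lowest at DIV0, ribosomal RNA is near 0 at E10.5 only, and the nuclear-encoded subunits are highest at E13.5.

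E10.5 cells and E13.5 nuclei are the youngest pair of ages, and age, strain and isolation change together between them, so these cannot be told apart. mt-Rnr1 had 0.842, 0.629 and 4.06 CPM (6, 5 and 31 counts) at E10.5 and 2787 and 2314 CPM at E13.5. mt-Rnr2 had 1.40, 0.881 and 6.15 CPM (10, 7 and 47 counts) at E10.5 and 3701 and 2923 CPM at E13.5. The lowest E13.5 library exceeded the highest E10.5 library 570-fold for mt-Rnr1 and 475-fold for mt-Rnr2. In edgeR's quasi-likelihood test over the 18 tissue libraries, on the log2 scale, mt-Rnr1 was higher by 10.12 ± 0.62 (SE, Benjamini-Hochberg adjusted p = 2.93e-10) and mt-Rnr2 by 9.88 ± 0.64 (adjusted p = 6.22e-10). Here and below a gene is called when its unadjusted p is under 0.001 and its change at least 2-fold, the limits of the study. The 2 ribosomal RNAs were called higher and 8 messenger RNAs lower, against 24.6% higher and 19.4% lower (44.1% in all) of the 15030 genes tested. By an adjusted p under 0.05 and the same fold, 12 members were called, against 51.5% of genes. mt-Atp8, mt-Atp6, mt-Co3 and mt-Nd3, 4 of the 8 called lower, passed the filter on low counts only through the E10.5 libraries, where they are high, so the count is no support for a drop of the group.

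All 3 complex IV messenger RNAs fell. mt-Co1, the catalytic subunit of cytochrome c oxidase, had 1915, 2089 and 1864 CPM at E10.5 and 372 and 296 CPM at E13.5 with its copy, a log2 change of -2.83 ± 0.28 (adjusted p = 1.09e-07). mt-Co2, which takes electrons from cytochrome c, had 907, 925 and 705 CPM against 82.6 and 49.8 CPM, a change of -3.97 ± 0.36 (adjusted p = 3.5e-08). mt-Co3 had 476, 528 and 571 CPM against 48.5 and 29.3 CPM, a change of -4.07 ± 0.36 (adjusted p = 2.87e-08). None of the 3 overlapped between the ages, but the share of all genes without overlap was not computed. As deposited, without the copies, mt-Co2 was not called (-3.77 ± 1.54, adjusted p = 0.0434), and the call of mt-Co3 (-4.86 ± 1.10) was lost when E10.5 replicate 1 (-5.01), E10.5 replicate 3 (-4.33) or E13.5 replicate 1 (-4.01) was left out.

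Complex I was mixed. mt-Nd1, a membrane subunit near the quinone site, had 639, 643 and 451 CPM at E10.5 and 121 and 85.8 CPM at E13.5 and fell by 2.76 ± 0.32 on the log2 scale (adjusted p = 6.17e-07). mt-Nd3 fell by 4.61 ± 0.40 with its copy (75.9, 86.9 and 71.6 CPM against 5.37 and 2.83) and mt-Nd4, a proton-pumping subunit, by 2.13 ± 0.46 (458, 463 and 260 CPM against 121 and 96.5). The mt-Nd4 call was lost without either E13.5 library (deposited values -2.20 and -2.06), and the deposited mt-Nd3 value (-5.16 ± 1.04) without E13.5 replicate 2 (-3.81). The other proton-pumping subunits were not called: mt-Nd2 differed by -1.10 ± 0.52 (adjusted p = 0.0661) and mt-Nd5 by -0.60 ± 0.37 (adjusted p = 0.155). mt-Nd5 had 298, 331 and 185 CPM at E10.5 and 223 and 206 CPM at E13.5, which overlapped. mt-Nd4l differed by -1.25 ± 0.43 with its copy (adjusted p = 0.0151), short of the limit on the unadjusted p.

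mt-Nd6, from the light strand, had the opposite sign to the other messenger RNAs. It had 15.6, 19.8 and 22.5 CPM at E10.5 and 33.1 and 52.6 CPM at E13.5, a log2 difference of 0.91 ± 0.32 that did not reach the limits (adjusted p = 0.0186, with an unadjusted p above 0.001), although the libraries did not overlap. There were 375, 313 and 216 counts of the other 12 messenger RNAs per mt-Nd6 count at E10.5 and 41.3 and 19.7 at E13.5. The study's counting is described with default settings, which ignore strand, so reads of heavy-strand RNA that run across the mt-Nd6 gene would be counted with it.

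In complexes III and V, mt-Cytb had 503, 506 and 337 CPM at E10.5 and 138 and 88.4 CPM at E13.5 and fell by 2.27 ± 0.39 (adjusted p = 6.37e-05). mt-Atp8 fell by 2.77 ± 0.50, from 9.68, 11.3 and 11.1 CPM to 1.53 and 2.04 CPM, which is 8 and 26 counts. mt-Atp6, the subunit through which protons pass, had 387, 428 and 315 CPM against 170 and 106 CPM with its copy and was not called (-1.74 ± 0.47, adjusted p = 0.0033). Its deposited value, -13.35 ± 1.57, was called because both E13.5 libraries list it at 0, and it is no measure of the fold. Over the 6 messenger RNAs without an annotated copy in the chromosome 1 block the median log2 difference was -1.69, with 3 called lower, beside a median of 0.13 over all genes tested. Among them mt-Nd2 (chrM:3914-4951) overlaps the stretch that aligns to a chromosome 2 copy, described below. The mean fragment length, read from the effective length of mt-Nd5, was 172 to 184 bases at E10.5 and 269 and 276 bases at E13.5, which leaves mt-Atp8 (204 bases long) with an effective length of 38.0 to 44.9 and 19.1 and 22.4 bases. The part of fragment length in the drop of the short genes was not tested.

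**Figure D3:**
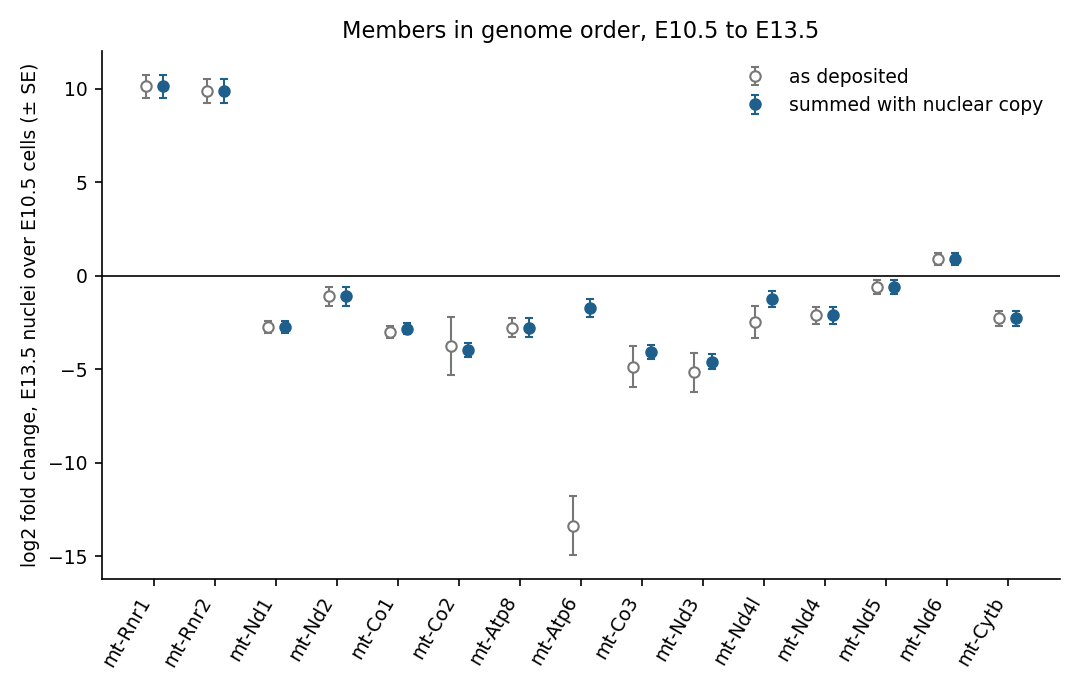
log2 fold change of E13.5 nuclei over E10.5 cells (y axis, ± SE) for 15 members in genome order (x axis), from the counts as deposited and with the nuclear copies added. The ribosomal RNAs stand near 10, mt-Nd6 is the only messenger RNA above 0, and adding the copies moves mt-Atp6 from -13.35 to -1.74.

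Of 71 listed nuclear-encoded subunits of complexes I, III, IV and V, 70 were tested between E10.5 and E13.5, 18 were called higher, a share close to the 24.6% of all genes, and 6 lower, and their median was 0.24, beside 0.13 over all genes tested. Uqcrb of complex III (3.73 ± 0.23), Ndufb4 of complex I (3.46 ± 0.31) and Cox6c of complex IV (3.33 ± 0.16) rose, while Cyc1, the cytochrome c1 of complex III (-1.67 ± 0.15), and Atp5g1 of complex V (-1.62 ± 0.17) fell. Of 32 genes that replicate, transcribe or process mitochondrial nucleic acids, 3 were higher and 7 lower. Tbrg4, a processing factor (-3.05 ± 0.26), and Twnk, the mitochondrial helicase (-1.79 ± 0.25), fell, and Rexo2, a mitochondrial exonuclease (1.70 ± 0.20), rose. All 7 endothelial, 5 of 5 pericyte and 6 of the 6 tested erythroid markers were higher at E13.5, and the part of these cells in the mitochondrial values was not tested.

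The step from E13.5 to P4 compares nuclei with nuclei, and it shares its E13.5 libraries with the comparison above. mt-Nd6 was the 1 member called of 15, against 19% of all genes called lower and 23.8% higher (42.7% in all). By the adjusted p, 3 members were called, against 50.5%, and the other pair was mt-Co3 and mt-Nd4l, whose reads are shared with the copies. mt-Nd6 had 33.1 and 52.6 CPM (173 and 670 counts) at E13.5 and 9.10, 10.1 and 11.0 CPM (38, 44 and 42 counts) at P4, with no overlap, and fell by 2.09 ± 0.34 on the log2 scale (adjusted p = 4.02e-05). The call held with each of these 5 libraries left out in turn, at -1.58 to -2.43. None of the 12 heavy-strand messenger RNAs was called, with or without the copies, and their difference from mt-Nd6 was not tested. mt-Co1 had 473, 444 and 452 CPM at P4 against 372 and 296 CPM at E13.5 (0.49 ± 0.26, adjusted p = 0.093), and mt-Nd5 had 205, 220 and 170 CPM against 223 and 206 CPM (-0.08 ± 0.36, adjusted p = 0.863). mt-Co2 had 39.3, 38.1 and 29.6 CPM against 82.6 and 49.8 CPM with its copy, without overlap (-0.83 ± 0.32, adjusted p = 0.0268), and mt-Atp6 was lower without overlap too (-0.83 ± 0.45, adjusted p = 0.110). mt-Rnr1 and mt-Rnr2 differed by -0.41 ± 0.43 and -0.46 ± 0.46, which is within their errors.

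Between E13.5 and P4, of the 70 nuclear-encoded subunits tested, 58 were called lower and 0 higher in edgeR (68 had an unadjusted p under 0.05, and DESeq2 called 60), with a median of -2.02. Among all 15030 genes tested, 2849 were called lower, 10832 had an unadjusted p under 0.05 and DESeq2 called 6726. Atp5h of complex V (-3.49 ± 0.17), Ndufb4 (-3.37 ± 0.32) and Uqcrb (-3.17 ± 0.23) fell, for example. The cytosolic ribosomal proteins, another list of highly expressed housekeeping genes, fell in 33 of 33 with a median of -2.87. Among the 13 messenger RNAs of the mitochondrial genome with their copies, 7 differed upwards and 6 downwards, with a median of 0.05. The mitochondrial RNA machinery split into 3 higher (Mterf3 1.22 ± 0.17, Ptcd3 1.22 ± 0.18 and Pnpt1 1.03 ± 0.17) and 6 lower, among them Hsd17b10, a subunit of the RNase that cuts out transfer RNAs (-2.80 ± 0.31), and Slirp, which stabilises mitochondrial messenger RNA (-1.79 ± 0.26). Markers of other cells moved at the same step, with 5 of 6 erythroid (median -3.38) and 4 of 7 endothelial genes (median -1.70) called lower and 6 of 6 oligodendrocyte genes (median 4.37) called higher, and their part was not tested.

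Between P4 and P13 mt-Co1 was the 1 member called, against 7.54% of genes lower and 5.8% higher (13.3% in all). By the adjusted p, 3 members were called (4 with the copies added), against 18.8%. mt-Co1 had 473, 444 and 452 CPM at P4 and 182 and 167 CPM at P13 with its copy, without overlap, and fell by 1.12 ± 0.26 on the log2 scale (adjusted p = 0.0032; as deposited -1.37 ± 0.29). The call on the deposited counts was lost without P13 replicate 1 (-1.48) and without P13 replicate 2 (-1.29). Other members had the same sign without reaching the limits, mt-Nd4 with its copy at -1.27 ± 0.45 (adjusted p = 0.0365), mt-Rnr1 at -1.18 ± 0.45 (adjusted p = 0.0496) and mt-Rnr2 at -1.18 ± 0.48 (adjusted p = 0.065). With the copies added, 12 of 13 messenger RNAs were below 0, and 47.1% of all genes were. At the same step 27 of 70 nuclear-encoded subunits were called higher and 0 lower (58 at an unadjusted p under 0.05, 26 called by DESeq2), with a median of 0.91, and Ndufc1 of complex I rose by 1.98 ± 0.27. The mitochondrial RNA machinery gave 0 calls of 32 in edgeR, with 11 at an unadjusted p under 0.05 and 0 calls in DESeq2. For comparison, 6533 of all 15030 genes tested had an unadjusted p under 0.05 and DESeq2 called 2220. The endothelial list fell in 7 of 7 and the pericyte list in 5 of 5 here, from summed levels of 1193 to 1658 and 710 to 1068 CPM to 65.7 and 100.6 and 58.7 and 77.2 CPM, the oligodendrocyte list rose in 6 of 6, and their part in the mt-Co1 result was not tested.

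After P13 no member was called from one age to the next. Between P13 and P21 edgeR called 0 of 15 (3 with an unadjusted p under 0.05), where 7.3% of all genes were called, and DESeq2 called 1. All 15030 genes tested gave 5137 with an unadjusted p under 0.05 and 1210 calls in DESeq2. By the adjusted p, 1 member was called, against 11%. That member was mt-Nd6 (-1.50 ± 0.50, adjusted p = 0.0399), which had 3.78 and 5.83 CPM at P13 and 2.01, 0.754 and 2.31 CPM at P21. With the copies added the adjusted p called 2, mt-Nd6 and mt-Co2 (36.9 and 29.7 CPM against 9.27, 11.6 and 26.1 CPM, -1.15 ± 0.34, adjusted p = 0.0213). The nuclear-encoded list gave 49 calls lower of 70 at the same step, with a median of -1.38. Between P21 and P56 edgeR called 0 of 15 members (1 with an unadjusted p under 0.05, 0 called by DESeq2), beside 0.173% of all genes, or 0.0532% by the adjusted p with 0 members. Between P56 and 2yr it called 0 (2 with an unadjusted p under 0.05, 0 called by DESeq2), beside 0.685%, or 0.359% by the adjusted p with 0 members. mt-Co1 with its copy had 79.7, 115 and 178 CPM at P56 and 66.6 and 60.8 CPM at 2yr (-0.91 ± 0.27, adjusted p = 0.156).

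P21 and P56 were also the groups whose replicates spread most. P21 replicate 1 lay below its group mean in 14 of the 15 members and replicate 3 above it in 14, with median log2 deviations of -0.95 and 0.79. At P56 replicate 1 lay below in 15 of 15 and replicate 3 above in 14, with median deviations of -0.60 and 0.73. In P4, by contrast, the 3 median deviations were 0.05, -0.04 and 0.03, and those of 2yr were 0.11 and -0.11. mt-Cytb, for example, had 13.8, 34.2 and 53.3 CPM at P21 and 21.1, 27.1 and 53.4 CPM at P56, against 126, 130 and 111 CPM at P4. Library totals were 3901648 to 3990891 counts at P21 and 3931157 to 3978862 counts at P56, so depth hardly differed between these replicates. In replicates 1, 2 and 3 the nuclear-encoded respiratory chain list summed to 1204, 1400 and 1456 CPM at P21 and 1172, 1161 and 1398 CPM at P56. The motor neuron markers summed to 718, 630 and 640 CPM and to 622, 569 and 595.5 CPM in the same libraries. Oligodendrocyte markers summed to 1130, 1528 and 1420 CPM at P21 and 405, 483 and 640 CPM at P56. Astrocyte markers summed to 145, 194 and 182 CPM and to 113, 119 and 179 CPM. Cytosolic ribosomal proteins summed to 1266, 1687 and 2274 CPM and to 1860, 1960 and 2044 CPM. What the spread of the members shares with these lists was not tested.

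**Figure D4:**
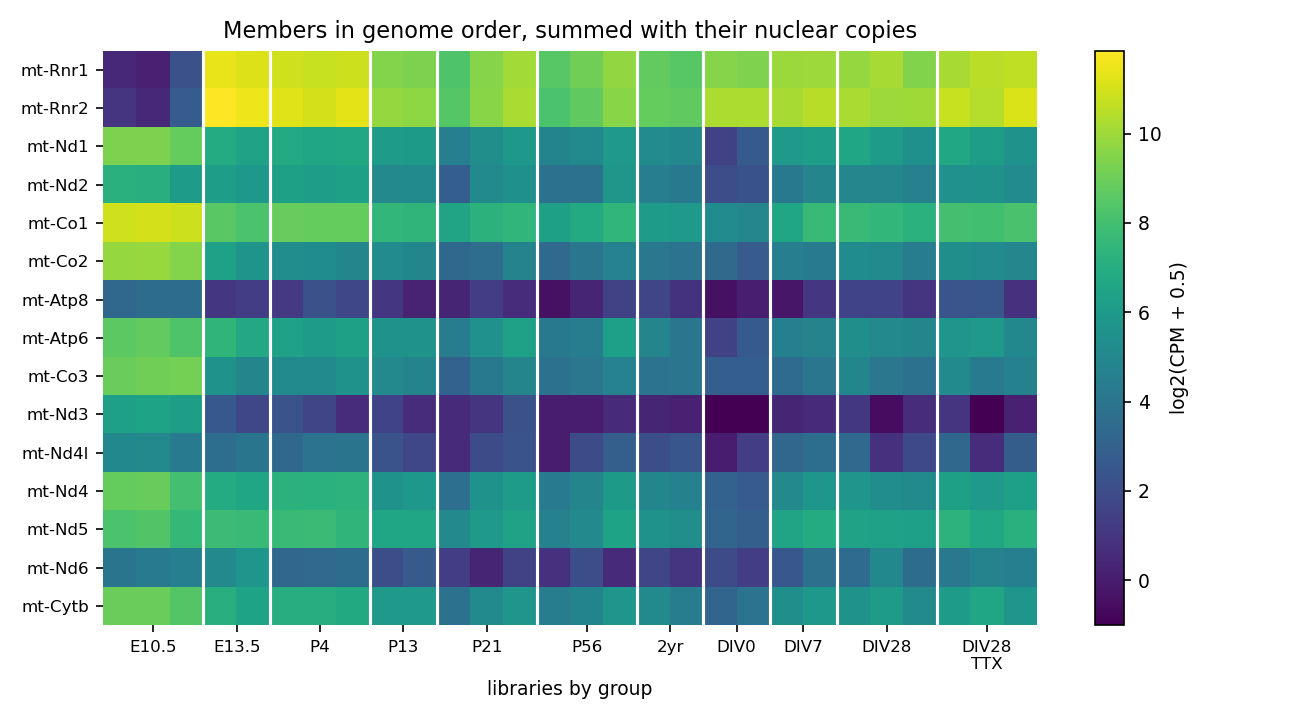
log2(CPM + 0.5) of 15 members in genome order (vertical), summed with their nuclear copies, in 28 libraries by group (horizontal), colour from low (dark) to high (light). The E10.5 columns are dark for mt-Rnr1 and mt-Rnr2 and light for most heavy-strand messenger RNAs, the DIV0 columns are dark for the messenger RNAs and not for the ribosomal RNAs, and P21 and P56 columns differ among themselves.

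Taking E13.5 and P21 directly, 4 of 15 members were called lower, against 26.3% of all genes lower and 29.8% higher (56.1% in all), so the share was about that of the background. With the adjusted p as the limit 10 were called, against 62.3%. Among the 4 called, mt-Nd6 had the largest log2 change, -4.43 ± 0.43 (adjusted p = 4.94e-08). It was the member called with each of the 5 libraries left out in turn (-3.92 to -4.77). The others were mt-Rnr2 (-1.87 ± 0.46), mt-Nd5 (-1.62 ± 0.37) and, on the deposited counts, mt-Co1 (-1.17 ± 0.27, or -0.995 ± 0.25 with its copy, just short of 2-fold). The summed counts called 5 members, mt-Nd6, mt-Rnr2, mt-Nd5, mt-Co2 (-1.80 ± 0.33, adjusted p = 8.35e-05) and mt-Cytb (-1.48 ± 0.37, with an unadjusted p at the limit). mt-Rnr2 lost its call without either E13.5 library (-1.77 and -1.93) or without P21 replicate 1 (-1.53) or 2 (-1.88), mt-Nd5 likewise (-1.64, -1.57, -1.35 and -1.65), and mt-Co1 without either E13.5 library (-1.08 and -1.23) or without P21 replicate 1 (-0.932). The number called was 2 and 1 without E13.5 replicate 1 and 2, and 1, 2 and 7 without P21 replicate 1, 2 and 3. With the replicate number as a block it was 7. The same comparison lowered 61 of 70 nuclear-encoded subunits with a median of -2.54, and the 13 messenger RNAs with their copies had a median of -1.12. All 7 endothelial markers were lower and all 6 oligodendrocyte markers higher at P21, and the part of these cells in these values was not tested.

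**Figure D5:**
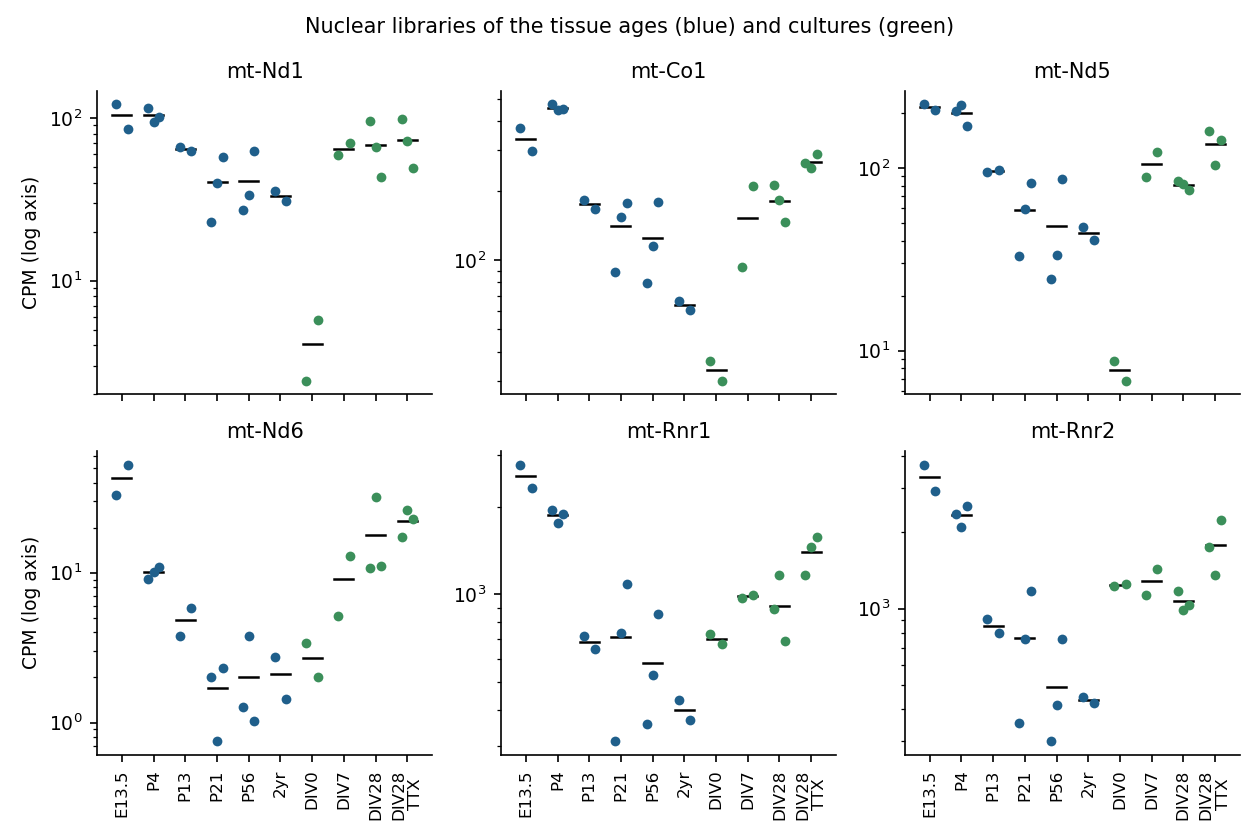
CPM on log axes of selected members, with their copies where they have any, in the 25 libraries of nuclei, tissue ages in blue and cultures in green, each point a library and each line a group mean. mt-Nd6 drops from E13.5 to P21 and is higher in DIV28 cultures than at P21, heavy-strand messenger RNAs are lowest at DIV0, and the ribosomal RNAs are not.

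The culture started from the lowest messenger RNA levels of the series. Between DIV0 embryoid bodies and DIV7 cultures 5 of the 9 members that passed the filter were called higher and 0 lower, against 8.36% of 12890 genes higher and 2.81% lower (11.2% in all). An adjusted p under 0.05 called 6, against 21.6%. The 9 are 7 messenger and both ribosomal RNAs, and the other 6 messenger RNAs did not pass, so they are not all members. Of the 5 called, mt-Nd1 and mt-Nd2 were under the filter at DIV0 and entered through the later cultures, so the count is no support for a rise of the group. mt-Nd1 had 2.43 and 5.72 CPM at DIV0 and 59.2 and 70.0 CPM at DIV7 and rose by 3.92 ± 0.50 on the log2 scale (adjusted p = 0.00026). mt-Nd5 had 8.74 and 6.86 CPM against 89.1 and 122 CPM and rose by 3.67 ± 0.30 (adjusted p = 1.29e-05). The groups did not overlap in either gene, but the share of all genes without overlap was not computed. mt-Nd4 rose by 2.54 ± 0.33 and mt-Nd2 by 2.47 ± 0.39. mt-Co1 had 36.4 and 30.03 CPM at DIV0 and 92.8 and 210 CPM at DIV7 with its copy (2.10 ± 0.37, adjusted p = 0.00183). mt-Cytb (2.05 ± 0.48, adjusted p = 0.00933) and mt-Nd6 (1.67 ± 0.75, adjusted p = 0.13) were not called. With the copies added 13 members passed the filter and mt-Atp6 (2.43 and 5.72 CPM against 23.3 and 26.5) was called too, at 2.55 ± 0.46.

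The ribosomal RNAs showed no such rise. mt-Rnr1 had 731 and 672 CPM at DIV0 and 969 and 997 CPM at DIV7 (0.40 ± 0.35, adjusted p = 0.427), and mt-Rnr2 had 1233 and 1255 CPM against 1135 and 1438 CPM (-0.03 ± 0.28, adjusted p = 0.943). The nuclear-encoded subunits gave 0 calls of 63 in edgeR, with 10 at an unadjusted p under 0.05 and 2 calls in DESeq2, and a median of 0.32. The mitochondrial RNA machinery gave 0 of 28, with 8 at an unadjusted p under 0.05 and 0 in DESeq2. Among all 12890 genes tested, 4664 had an unadjusted p under 0.05 and DESeq2 called 2121. Astrocyte markers, from the cells the neurons were plated on, summed to 4.29 and 4.86 CPM at DIV0, 75.1 and 167 CPM at DIV7 and 16.3 to 50.0 CPM at DIV28. Of that list 2 of the 5 tested genes were called higher at DIV7. Of 7 endothelial genes 2 were tested and 1 was called higher. The 7 summed to 1.70 and 2.57 CPM at DIV0, 27.4 and 18.3 CPM at DIV7 and 54.8 to 137 CPM at DIV28. The 5 pericyte genes summed to 0.971 and 0, 27.4 and 6.62, and 0.948 to 4.91 CPM in the same groups. The part of RNA from these cells in the messenger RNA values was not tested. The mt-Co1 call was lost without DIV7 replicate 2 (1.43) or DIV0 replicate 2 (2.01), and the mt-Nd2 call without DIV0 replicate 1 (2.36). With the library titled DIV0 replicate 3 placed in DIV0, 0 members were called, and mt-Nd1 and mt-Nd5 stood at 1.62 and 1.53.

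From DIV7 to DIV28 edgeR called 0 of 9 members (1 with an unadjusted p under 0.05, 0 called by DESeq2), where 7.7% of all genes were called, or 15.8% by the adjusted p with 0 members. mt-Nd6 was that member, with 5.18 and 12.98 CPM at DIV7 and 10.8, 31.8 and 11.0 CPM at DIV28 (1.38 ± 0.61, adjusted p = 0.14), and the groups overlapped. mt-Nd1 had 95.4, 65.9 and 43.5 CPM at DIV28, a spread as wide as its difference from DIV7 (0.41 ± 0.38). All 12890 genes tested gave 4203 with an unadjusted p under 0.05 and 1627 calls in DESeq2.

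TTX was applied to ask how far neuronal firing shapes the culture. It gave 0 calls among 9 members in edgeR (3 with an unadjusted p under 0.05, 0 called by DESeq2), beside 0.683% of all genes called, or 0.209% by the adjusted p with 0 members. The 3 were higher with TTX: mt-Nd5 (84.4, 81.5 and 75.3 CPM untreated, 159, 104 and 143 CPM with TTX, 0.64 ± 0.21, adjusted p = 0.384), mt-Nd4 (54.4, 39.5 and 35.1 against 79.6, 61.8 and 75.5 CPM, 0.66 ± 0.24, adjusted p = 0.44) and mt-Rnr2 (1175, 989 and 1037 against 1757, 1352 and 2230 CPM, 0.64 ± 0.23, adjusted p = 0.437). All 9 members had positive log2 differences, against 48.7% of all genes below 0. Of the 12890 genes tested, 1008 had an unadjusted p under 0.05 and DESeq2 called 187. Same-numbered cultures are pairs in the study's supplement, and with the replicate number as a block 0 members were called and 6 had an unadjusted p under 0.05, while the number of all genes called rose from 88 to 172. The nuclear-encoded list had a median of -0.04 and 0 calls of 63 in edgeR, with 0 at an unadjusted p under 0.05 and 0 called by DESeq2. With each of the 6 libraries left out in turn, the library titled DIV0 replicate 3 included, 0 members were called.

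DIV0 and E13.5 nuclei are the youngest nuclear samples of each system. Of 15 members 7 were called lower at DIV0 and 0 higher, against 24.3% lower and 15.1% higher of 15521 genes (39.4% in all). An adjusted p under 0.05 called 11, against 51.1%. mt-Nd5 differed by -4.73 ± 0.48, mt-Nd1 by -4.64 ± 0.47, mt-Nd2 by -3.98 ± 0.69, mt-Nd6 by -3.95 ± 0.65, mt-Nd4 by -3.92 ± 0.57, mt-Co1 by -3.29 ± 0.37 and mt-Cytb by -3.24 ± 0.51, with adjusted p from 3.98e-05 to 4.06e-08. With the copies added 13 members were called, among them mt-Atp6 (-5.11 ± 0.64) and mt-Co2 (-3.01 ± 0.43), and mt-Atp8 and mt-Rnr2 were not. All 7 held with each of the 4 libraries left out in turn, and 4 of them (mt-Co1, mt-Nd4, mt-Nd6 and mt-Cytb) with the titled library placed in DIV0. At DIV0 mt-Nd1 (2.43 and 5.72 CPM), mt-Nd2 (3.64 and 4.29) and mt-Nd6 (3.40 and 2.00) were under the filter. They entered through other groups, so the count is no support for a lower level of the group. mt-Rnr1 (-1.81 ± 0.48, adjusted p = 0.00248) and mt-Rnr2 (-1.36 ± 0.48, adjusted p = 0.0169) differed by less. The nuclear-encoded subunits were lower in 65 of 70 with a median of -2.96, the cytosolic ribosomal proteins in 30 of 33 with a median of -2.99, and the endothelial markers in 7 of 7 with summed levels of 1.70 and 2.57 CPM at DIV0. The part of these in the member values was not tested.

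P21 nuclei and DIV28 cultures, the later points, differed in 1 of 15 members, against 13.3% of genes higher and 13.1% lower (26.3% in all). With the adjusted p as the limit 2 were called, against 33.8%. mt-Nd6 had 2.01, 0.754 and 2.31 CPM (8, 3 and 9 counts) at P21 and 10.8, 31.8 and 11.0 CPM (53, 694 and 93 counts) at DIV28, and was higher by 3.75 ± 0.57 on the log2 scale (adjusted p = 1.22e-05). The call held with each of the 6 libraries left out (2.84 to 4.05), DIV28 replicate 2 included, the deepest library of the series. mt-Co1 (0.62 ± 0.28), mt-Nd1 (0.998 ± 0.30) and mt-Cytb (0.88 ± 0.37) were not called, and with its copy mt-Co2 was (1.24 ± 0.32, adjusted p = 0.00274). There were 109, 598 and 271 counts of the other 12 messenger RNAs per mt-Nd6 count at P21, against 59.9, 17.5 and 38.8 at DIV28 and 113 to 145 at P4. The nuclear-encoded subunits were called higher in 19 of 70 and lower in 0, with a median of 0.76. The cytosolic ribosomal proteins were called higher in 19 of 33 and lower in 0, with a median of 1.12. The oligodendrocyte list was lower in 6 of 6 at DIV28. Of 7 endothelial genes 2 were called higher and 3 lower, with summed levels of 6.51 to 14.3 CPM at P21 and 54.8 to 137 CPM at DIV28. The part of these lists in the member values was not tested.

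The change over culture and the change over tissue age were compared in a single contrast, chosen after the data were seen: DIV28 minus DIV0 less P21 minus E13.5. It was positive and called for 8 of 15 members, beside 24.2% of all genes called higher and 17.5% lower (41.7% in all). By the adjusted p, 11 were called, against 57.8%. As mt-Nd1, mt-Nd2 and mt-Nd6 were under the filter at DIV0, and mt-Nd6 at P21 too, the count is no support for a difference of the group. The contrast was 7.70 ± 0.87 for mt-Nd6, 5.63 ± 0.56 for mt-Nd1, 5.44 ± 0.57 for mt-Nd5, 4.26 ± 0.83 for mt-Nd2, 4.19 ± 0.68 for mt-Nd4, 4.12 ± 0.63 for mt-Cytb, 3.91 ± 0.46 for mt-Co1 and 2.46 ± 0.61 for mt-Rnr1. The 7 messenger RNA calls held with each of the 10 libraries left out, and that of mt-Rnr1 was lost in 7 of the 10 (2.19 to 2.61). The nuclear-encoded subunits had 64 of 70 called higher with a median of 3.74, and the cytosolic ribosomal proteins 30 of 33 with a median of 4.198, so the sign was not particular to the mitochondrial genome. The summed counts called 12 members, and with the titled library placed in DIV0 5 were.

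Per kilobase of annotated length, with the copies added, mt-Co1 was the highest of the 13 messenger RNAs in all 11 groups. Its level was 1266 ± 76.6 CPM per kilobase (mean ± SD) in the 3 E10.5 libraries, 216 ± 35.0 in the 2 of E13.5 and 21.5 ± 2.93 in the 2 of DIV0. At E10.5 mt-Co2 followed with 1237 ± 178, within its spread of mt-Co1, then mt-Co3 with 670 ± 60.8. At E13.5 the next was mt-Atp6 with 203 ± 66.1, which did not differ from mt-Co1 beyond its spread, then mt-Nd5 with 118 ± 6.34, while mt-Co2 ranked 6 (96.8 ± 33.9) and mt-Co3 ranked 10 (49.6 ± 17.3) of 13. mt-Nd6 was the lowest of 13 at E10.5 (37.1 ± 6.74), rank 7 at E13.5 (82.6 ± 26.5) and the lowest again at P21 (3.25 ± 1.59). mt-Rnr1 reached 2671 ± 350 CPM per kilobase at E13.5, above every messenger RNA. The order depends on the length used. By the deposited TPM, which divide by effective length and leave the copies out, mt-Co1 was the highest in every group but 2yr, where mt-Atp8 (21.4) and mt-Nd1 (19.4) lay above it (16.3), and mt-Nd6 came next after it at E13.5 (119 ± 49.0).

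By complex, the 3 complex IV genes held 59.3 ± 4.41% of messenger RNA counts (with copies) at E10.5 and 35.2 ± 1.05% at E13.5, and the 7 complex I genes 26.0 ± 3.42% and 44.7 ± 3.90%. In the other groups of nuclei complex IV held between 34.4% (2yr) and 42.6% (P56), except DIV0, where it held 52.9 ± 8.06% and complex I 29.5 ± 0.426%. The DIV0 makeup rests on 251 and 275 messenger RNA counts as deposited. The mean of complex IV lay above that of complex I at P21 (41.8 against 39.6%) and P56 (42.6 against 39.7%) too, by less than their SDs.

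ATAC-seq, which maps DNA open to a transposase, gave another view of the same genome and of its copies. None of the 22 libraries listed a peak on the mitochondrial genome, and all listed peaks on 21 chromosomes. A second copy, chr2:22587291-22590533 on chromosome 2, aligned to chrM:4441-7699 with 97.78% of 3246 bases identical, and it held a peak in 22 of 22 libraries, with a highest fold enrichment of 6.54 to 12.4 in each and a best rank by p of 2 to 593 among 93736 to 273452 peaks. The study's methods give sorted whole Hb9-GFP cells for ATAC-seq at E10.5 and sorted nuclei for the other groups. In E10.5 replicate 1 and replicate 2 the chromosome 2 copy ranked 2 by p, where age, strain and isolation cannot be told apart. The chromosome 1 copy held a peak in 1 library, E13.5 replicate 1, at up to 3.37-fold. Reads that fit both the mitochondrial genome and a copy can be placed at either, so open chromatin at a copy and mitochondrial DNA cannot be told apart here.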

How the data were processed

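RNA-seq tables were deposited for 28 libraries, each with RSEM expected counts and TPM per gene, made by the authors per library by trimming (Trim Galore with cutadapt 0.6.2, as the submitters' processing notes give it) and quantifying with RSEM 1.3.0 and STAR 2.5.2b on mm10. RSEM was run with default settings, which do not use strand. The authors also deposited ATAC-seq peaks for 22 libraries, called per library with MACS2 2.2.7.1 after BWA alignment, with the fold enrichment (a ratio to the library's background) and -log10 p of each peak.

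Expected counts were rounded and tested with edgeR 4.0.16 (quasi-likelihood, TMM factors) in 3 fits, over the 18 tissue libraries, the 10 cultures, and the 25 libraries without TTX. Genes needed at least 5 CPM in every replicate of a group, which left 15030, 12890 and 15521. A call needed an unadjusted p under 0.001 and at least a 2-fold change. Benjamini-Hochberg adjustment ran over all genes tested. Sequences, copies and genes came from GRCm38 (mm10) and GENCODE vM21, and matches were found by alignment. The fit was tested on simulated data. Alternatives were DESeq2 1.42.0, other size factors, totals without the members or without Gm26917, no filter, fits of the compared groups alone, the adjusted p as limit, a replicate block, each library left out, and the titled DIV0 library in DIV0. Summing members with copies and the contrast of culture and tissue were added after seeing the data. R 4.3.3 and Python 3.11.15 were used.

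The members and lists were chosen with earlier results of these data known. Of the members, 13 messenger and 2 ribosomal RNAs were named singly and the 22 transfer RNAs counted. Of every other list at most the 3 largest and 3 smallest called changes per comparison could be named, and outside the lists Gm26917 and the 10 genes most like the members. Replicates are separate samples, but where separate cultures or animals are not stated the p-values measure only the spread between these samples. Pairing was checked over genes, by correlating how far libraries with a shared number departed from the means of their groups: 0.635, 0.55 and 0.707 for DIV28 and TTX, which the study's supplement gives as pairs, and -0.135 to 0.219 elsewhere, where the libraries share only a number. Floors cover counting error only.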

Additional observations from a re-analysis of the deposited data

Results flagged for a closer look

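The change from DIV0 to DIV28 differed from the change from E13.5 to P21 for 8 of 15 members in edgeR's test of the difference itself. Beside them, 24.2% of all genes tested were called higher and 17.5% lower. Values are on the log2 scale and positive where culture rose relative to tissue. The differences were 7.70 for mt-Nd6, 5.63 for mt-Nd1, 5.44 for mt-Nd5, 4.26 for mt-Nd2, 4.19 for mt-Nd4, 4.12 for mt-Cytb, 3.91 for mt-Co1 and 2.46 for mt-Rnr1. This contrast was chosen after the data were seen, and mt-Nd1, mt-Nd2 and mt-Nd6 were under the filter at DIV0. The mt-Rnr1 call did not hold with every library left out in turn, and fewer members were called with the titled library in DIV0. Of 70 nuclear-encoded subunits 64 were called higher too.

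ATAC-seq, which the comparisons of RNA do not use, gave a peak inside the chromosome 2 copy of mitochondrial DNA in 22 of 22 libraries, with no control library to set beside it.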

How the results depend on the processing

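The 37 calls of members on the deposited counts were recomputed in 536 settings, of which 488 gave the same direction and call and 48 the same direction without the call. The numbers of members called moved by more than 1.5 times as follows. With no filter on low counts they were 1 for P56 against 2yr, 1 for P21 against P56, 3 for P13 against P21, 4 for P4 against P13, 4 for E13.5 against P4, 12 for E13.5 against P21, 3 for DIV7 against DIV28, 1 with TTX, 13 for E13.5 against DIV0 and 5 for P21 against DIV28. With an adjusted p under 0.05 they were 1 for P13 against P21, 3 for P4 against P13, 3 for E13.5 against P4, 10 from E13.5 to P21, 11 from E13.5 to DIV0 and 2 from P21 to DIV28. From E13.5 to P21 they were 7 with median-of-ratios factors and 7 without Gm26917 in the totals. DESeq2 called 1 from P13 to P21 and 3 from P21 to DIV28, the fit of the compared groups alone 5 from P4 to P13, and the sums with copies 13 from E13.5 to DIV0 and 2 from P21 to DIV28. The titled library in DIV0 gave 0 from DIV0 to DIV7, 4 from E13.5 to DIV0 and 5 for the contrast of culture and tissue. With each library left out the range was 1 to 3 from E13.5 to P4 (3 without E13.5 replicate 1), 0 to 1 from P4 to P13 (0 without either P13 library), 0 to 1 from P56 to 2yr, 1 to 7 from E13.5 to P21, 0 to 1 from DIV7 to DIV28 and 1 to 2 from P21 to DIV28. The cause of these moves was not tested.

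With the replicate number as a block the counts were 10 for E10.5 against E13.5, 1 for E13.5 against P4, 1 for P4 against P13, 0 in the 3 later steps, 7 from E13.5 to P21, 6 from DIV0 to DIV7, 0 from DIV7 to DIV28, 0 with TTX, 8 from E13.5 to DIV0, 1 from P21 to DIV28 and 9 for the contrast. Outside the TTX pair the libraries share only a number.

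The mean messenger RNA share as deposited was 0.475% at E10.5 and 0.00693% at DIV0, and became 0.566 and 0.00754% without Gm26917 in the total. As a share of TPM it was 0.753% at E10.5, 0.0605 at P4, 0.0319 at P13, 0.0113 at 2yr, 0.00272 at DIV0, 0.0303 at DIV7, 0.0187 at DIV28 and 0.0260 with TTX. With the copies added it was 0.565% at E10.5, 0.125 at E13.5, 0.129 at P4, 0.0604 at P13, 0.0278 at 2yr, 0.00906 at DIV0, 0.0562 at DIV28 and 0.0805 with TTX. Median-of-ratios factors moved the median of all genes from 0.13 to 0.24 from E10.5 to E13.5 and from 0.12 to 0.01 from E13.5 to P4.

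Groups of 2 or 3 libraries, reads shared with nuclear copies, and counts as low as 3 for mt-Nd6 at P21 limit these values.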

Other observations

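Across the 25 nuclear libraries, the genes whose level followed the summed deposited counts of the 13 messenger RNAs most closely, of 15506 genes compared as log2(CPM + 1), were Chmp2b (Pearson r = 0.902), Lrrc8c (0.901), Poglut3 (0.901), Epas1 (0.886), Foxc1 (0.879), Chst2 (0.872), Cdyl2 (0.870), Acadl (0.870), Sh3d19 (0.868) and Cav2 (0.867). The libraries are replicates of 10 groups, and no test was made.

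Over the same 25 libraries the messenger RNA share with copies, on the log2 scale, had a Pearson r of 0.828 with the summed endothelial markers, 0.740 with the pericyte markers, 0.698 with the share of mitochondrial ribosomal RNA, 0.647 with the nuclear-encoded respiratory chain list, -0.051 with the mitochondrial RNA machinery, -0.0949 with the motor neuron markers, -0.512 with the share of Gm26917 and 0.203 with the total count. These are descriptions over points that share library, depth and group.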
